A study of Mus musculus with 2 samples.

Results

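The secretory pathway and Rab genes described here are the 117 of 21936 genes in the deposited mouse liver table whose symbols belong to 4 name families. These are Rab followed by a digit (69 genes), Sec followed by a digit (29), Tmed followed by a digit (11), and Copa, Copb, Cope, Copg or Copz (8). The rule uses names alone and no measured value, but it was chosen with earlier results of these data known. Liver RNA was sequenced in 2 libraries. The knockout library came from mice labelled hnRNPK flox/flox Alb-Cre, in which Cre recombinase is driven by the albumin promoter, and the control library from mice labelled hnRNPK flox/flox, which carry the same floxed alleles without Cre. The albumin promoter is active in hepatocytes and in the fetal hepatoblasts that give rise to both hepatocytes and bile duct cells, so deletion need not stop at hepatocytes. The series title instead calls the groups Wild Type and hnRNPK-MKO, and no label reconciles these names. The table's columns are marked KO and WT and carry no genotype, so the KO column was taken as the Alb-Cre library and the WT column as the flox/flox library, and the direction of every ratio rests on this reading. No source used here gives the strain, sex, age or number of animals behind a library.

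Proteins destined for secretion enter the endoplasmic reticulum (ER) through the Sec61 channel, lose their signal peptide to the Sec11 signal peptidases, and leave in vesicles coated by COPII. COPI-coated vesicles return escaped proteins and receptors from the Golgi to the ER, and the p24 proteins encoded by the Tmed genes act as cargo receptors in both directions. Rab proteins are small GTPases that mark membranes and direct transport, tethering and fusion, with different members at the ER, the Golgi, secretory vesicles and endosomes. Hepatocytes secrete most plasma proteins by this route. Each member was placed in 1 of 11 groups by the known role of its protein, and the groups from ER entry to COPI are called early and the exocytic group late.

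There was 1 library per genotype, so no test across samples was possible. Differences are given without p-values, and replicates to check them are lacking. Each fold compares these 2 libraries and carries a 95% Clopper-Pearson interval that covers counting error only. The table held 12176239 counted reads for the knockout and 12428975 for the control. Hnrnpk, the targeted gene, had 1411 reads (17.9 FPKM) in the knockout and 2559 reads (31.8 FPKM) in the control, a ratio of 0.567 (0.531 to 0.605). Rmi1, which overlaps an end of Hnrnpk, had 108 reads in the knockout and 190 in the control. Hepatocyte markers dominated both libraries, with Alb at 907740 reads in the knockout and 932293 in the control. The 8 hepatocyte markers, all evaluated, summed to 47345 FPKM in the knockout and 44980 FPKM in the control. Of these, 5 were higher and 3 lower, from Cps1 at a ratio of 0.822 to Serpina1a at 1.44-fold. Markers of cholangiocytes, the epithelium of bile ducts, summed to 69.7 FPKM in the knockout and 12.5 FPKM in the control over 8 genes, none of them at 0 reads, and all 6 evaluated ones were higher in the knockout. Stellate cell and fibroblast markers summed to 54.7 FPKM in the knockout and 36.2 FPKM in the control over 8 genes, and 7 of the 8 were higher. The 8 macrophage markers summed to 126 FPKM in the knockout and 133 FPKM in the control, and the 7 sinusoidal endothelial markers to 58.0 and 66.5 FPKM in the same order. The 6 lymphocyte markers had 15 reads in the knockout and 16 in the control. The 8 markers of mucous and secretory epithelium summed to 365 FPKM in the knockout and 371 FPKM in the control, mostly Pigr. Of these 8, 6 were higher in the knockout, with Dmbt1 at 664 reads in the knockout and 2 in the control, and Tff2 and Agr2 were at 0 reads in the control. Only 4 of the 8 were evaluated, 2 of them higher (Dmbt1 and Tff3) and 2 lower (Pigr and Cela1).

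Of the 117 members, 83 were evaluated, which required a mean of at least 1 FPKM over both libraries and at least 40 reads in both together. Another 34 stayed below this minimum. Of these, 7 had no read in either library, 11 had 1 to 9 reads in total and 16 had 10 or more. All members together took 74685 reads (0.613%) in the knockout and 77516 reads (0.624%) in the control. The median log2 ratio of knockout over control was -0.02 over the evaluated members and -0.03 over all 9278 evaluated genes. The interquartile range of the log2 ratio was 0.37 over the members and 0.41 over all evaluated genes.

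Only Rab34 was at least 2-fold higher in the knockout among evaluated members, 1 of 83, where 1.91% of all evaluated genes were. Only Rab11fip2 was at least 2-fold lower, again 1 of 83, against 0.851% of all evaluated genes. In either direction 2.76% of all evaluated genes passed this size rule. At a smaller threshold, a log2 ratio of at least 0.32 in size, 10 members (12%) were higher and 15 (18%) lower, beside 14.1% and 17.2% of all evaluated genes. The remaining 58 evaluated members were closer to equality. Log2 ratios were below 0 for 45 members (54.2%) and above 0 for 38 (45.8%), beside 54.0% and 46.0% of all evaluated genes. The counting interval lay above 1 for 20 members (24.1%) and below 1 for 25 (30.1%), beside 20.5% and 26.1%. Because ratios varied with gene length, as described further on, a length-corrected log2 ratio is given too for some of the described values. It has the running median over evaluated genes of similar length subtracted. Values printed without it can depend on length as well, as those of Copb1, Copb2, Sec22a, Rab4a, Rab35 and Rab5if did. As a whole the family was therefore distributed much as all evaluated genes were, and the description below turns on the steps within it.

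**Figure D1:**
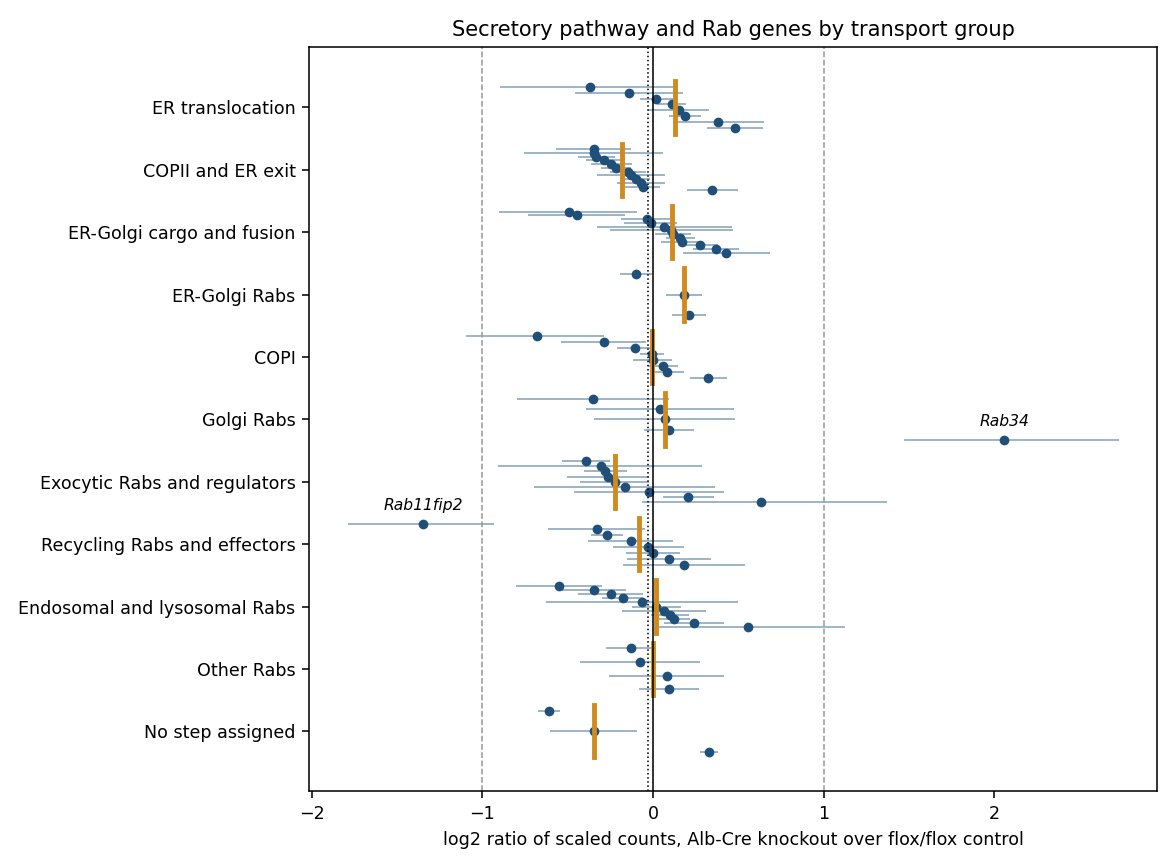
Log2 ratio of knockout over control (horizontal axis) for each of the 83 evaluated members (points) in 11 groups, with 95% counting intervals (bars); orange ticks are group medians, the dotted line is the median of all evaluated genes (-0.03) and dashed lines mark 2-fold. Rab34 and Rab11fip2 lie past 2-fold, 11 of 12 COPII and ER exit genes lie below 0, and 6 of 8 translocation genes lie above it. Of all evaluated genes, 54.0% lie below 0 and 46.0% above it.

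The 2 genes past 2-fold act outside the coats. Rab34, a Rab of the Golgi that also takes part in lysosome positioning and primary cilium formation, lies on mm10 chromosome 11 at 78188430 to 78192193, plus strand. It had 115 reads (3.96 FPKM) in the knockout and 28 reads (0.945 FPKM) in the control, 4.22-fold higher (2.78 to 6.63). Rab11fip2, an effector that links Rab11 on recycling endosomes to a myosin V motor, lies on chromosome 19 at 59902884 to 59943654, minus strand. It had 65 reads (0.878 FPKM) in the knockout and 171 reads (2.26 FPKM) in the control, a ratio of 0.391 (0.289 to 0.523). Both were low-level genes, and each was above 1 FPKM in only 1 library. Their read intervals in the libraries did not overlap. This adds no support, because both were picked as the largest differences. In bulk liver, fewer cells of a type and less RNA per cell cannot be told apart. Cholangiocyte and most fibroblast markers were higher in the knockout, while secretory epithelium markers were mixed. The part of these markers in the Rab34 value was not tested.

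The 250 bases before the start of each of these genes are shown, 5′ to 3′, because they are the members with the largest differences. They are from RefSeq, build GRCm38.p6, at chr11:78188177-78188426 on the plus strand and chr19:59943655-59943904 on the minus strand. None of the motifs searched below occurred in either, so no base is in capitals.
Rab34: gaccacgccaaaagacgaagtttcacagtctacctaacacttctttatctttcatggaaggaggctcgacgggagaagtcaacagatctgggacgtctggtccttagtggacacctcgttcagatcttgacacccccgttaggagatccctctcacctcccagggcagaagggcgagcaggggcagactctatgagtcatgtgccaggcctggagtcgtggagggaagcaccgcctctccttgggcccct
Rab11fip2: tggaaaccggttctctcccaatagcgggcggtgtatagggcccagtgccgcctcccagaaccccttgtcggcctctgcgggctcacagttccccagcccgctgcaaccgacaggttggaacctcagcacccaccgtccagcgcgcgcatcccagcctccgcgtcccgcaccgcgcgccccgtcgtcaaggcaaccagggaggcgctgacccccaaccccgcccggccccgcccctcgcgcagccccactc

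**Figure D2:**
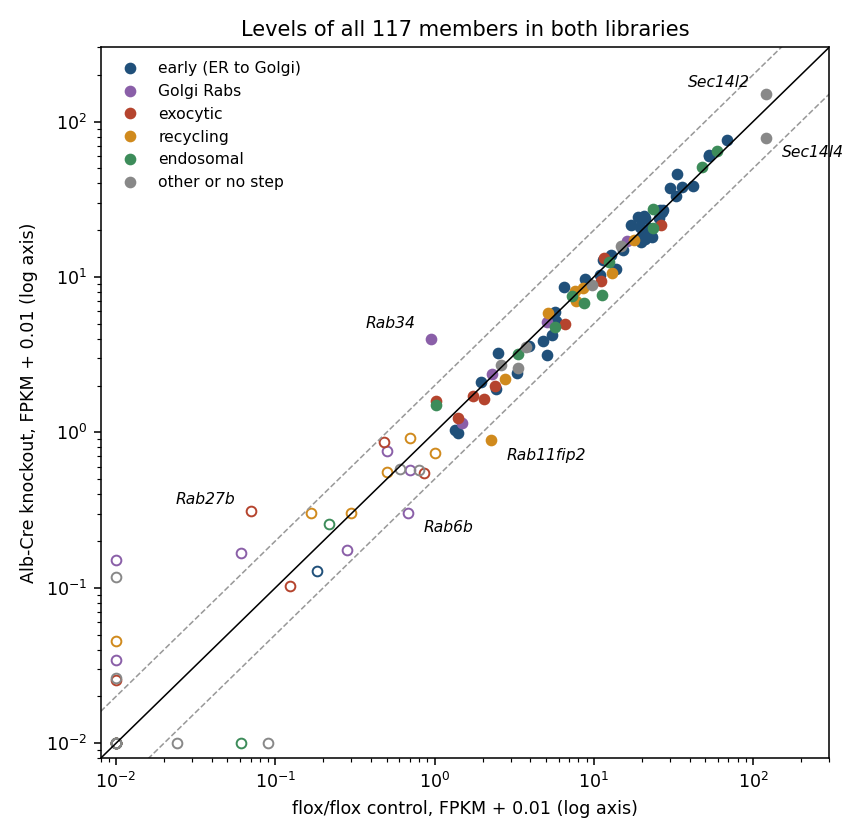
FPKM plus 0.01 of all 117 members in the knockout (vertical, log axis) against the control (horizontal, log axis), coloured by step; open points are below the expression minimum, the solid line is equality and dashed lines mark 2-fold. Most filled points hug the line, with Rab34 above it, Rab11fip2 below it, and Sec14l2 and Sec14l4 on opposite sides at the top.

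At ER entry, ratios leaned towards the knockout. All 8 members were evaluated, and 6 had a log2 ratio above 0, beside 46.0% of all evaluated genes. The median of the 8 was 0.13. Their reads summed to 7683 in the knockout and 7170 in the control, 1.10-fold (1.07 to 1.14). Sec61b, the beta subunit of the translocation channel, was the most abundant and the highest of them. It had 714 reads (46.1 FPKM) in the knockout and 527 reads (33.4 FPKM) in the control, 1.39-fold (1.24 to 1.56), a log2 ratio of 0.48 that was 0.31 when length-corrected. Sec61a1, the pore-forming alpha subunit, had 1952 reads in the knockout and 1762 in the control, 1.14-fold (1.07 to 1.22), a log2 ratio of 0.19, or 0.30 length-corrected. The gamma subunit Sec61g did not share this direction, with 157 reads in the knockout and 178 in the control, and its interval included 1 (0.727 to 1.13). Sec11c, a catalytic subunit of signal peptidase, was at 269 reads in the knockout and 212 in the control, 1.31-fold (1.09 to 1.57), while its paralogue Sec11a was at 547 and 507 reads in the same order, with an interval that included 1. Sec63, which works with the channel as a chaperone partner, was at a log2 ratio of 0.11 (0.24 length-corrected) and Sec62 at 0.02. Sec61a2, a minor alpha paralogue, was the lowest of the group, with 57 reads in the knockout and 76 in the control (0.537 to 1.10).

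COPII genes leaned the other way. Of 12 evaluated members, 11 had a log2 ratio below 0, and for 7 (58.3%) the counting interval lay below 1, beside 54.0% and 26.1% of all evaluated genes. After the length correction 7 of the 12 were below 0, as were 49.8% of all evaluated genes, and the median of -0.18 became -0.073. Reads summed to 13139 in the knockout and 15070 in the control, a ratio of 0.897 (0.876 to 0.918). All 6 genes of the inner coat, which selects cargo, were below 0, and 4 of 6 stayed there when length-corrected, with Sec23b at 0.00 and Sec24d at 0.01. Sec23a, the GTPase-activating subunit, had 1038 reads in the knockout and 1264 in the control, a ratio of 0.845 (0.777 to 0.918), and Sec23b 791 and 855 reads in the same order (0.863 to 1.05). Among the cargo-binding Sec24 paralogues, the related Sec24a and Sec24b were lowest. Sec24a had 1452 reads in the knockout and 1826 in the control, a ratio of 0.818 (0.763 to 0.877), a log2 ratio of -0.29, or -0.16 length-corrected. Sec24b had 310 reads in the knockout and 406 in the control, a ratio of 0.785 (0.675 to 0.913). The other related pair, Sec24c and Sec24d, had log2 ratios of -0.15 and -0.06, and Sec24c was at -0.07 when length-corrected. By FPKM, Sec24d was 36.7% of the summed Sec24 level in the knockout and 34.2% in the control, and Sec24a 21.2% and 23.1% in the same order.

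The scaffold genes that organise ER exit sites were also below 0. Sec16a had 1887 reads in the knockout and 2257 in the control, a ratio of 0.860 (0.809 to 0.915), a log2 ratio of -0.22, or -0.07 length-corrected. Sec16b had 1196 reads in the knockout and 1548 in the control, a ratio of 0.795 (0.736 to 0.858). The outer cage was split. Sec31a, the most abundant COPII gene, had 2292 reads (23.9 FPKM) in the knockout and 2527 reads (25.8 FPKM) in the control, a ratio of 0.933 (0.881 to 0.988). Its log2 ratio of -0.10 turned to 0.03 with the length correction and was -0.01 with length and GC content. Its partner Sec13, which also belongs to nuclear pores, was the 1 COPII member above 0, with 831 reads in the knockout and 672 in the control, 1.27-fold (1.15 to 1.41). Sec23ip, a Sec23-binding protein of exit sites, was at -0.13 (0.01 length-corrected) and Sec31b at -0.34, both with intervals that included 1.

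**Figure D3:**
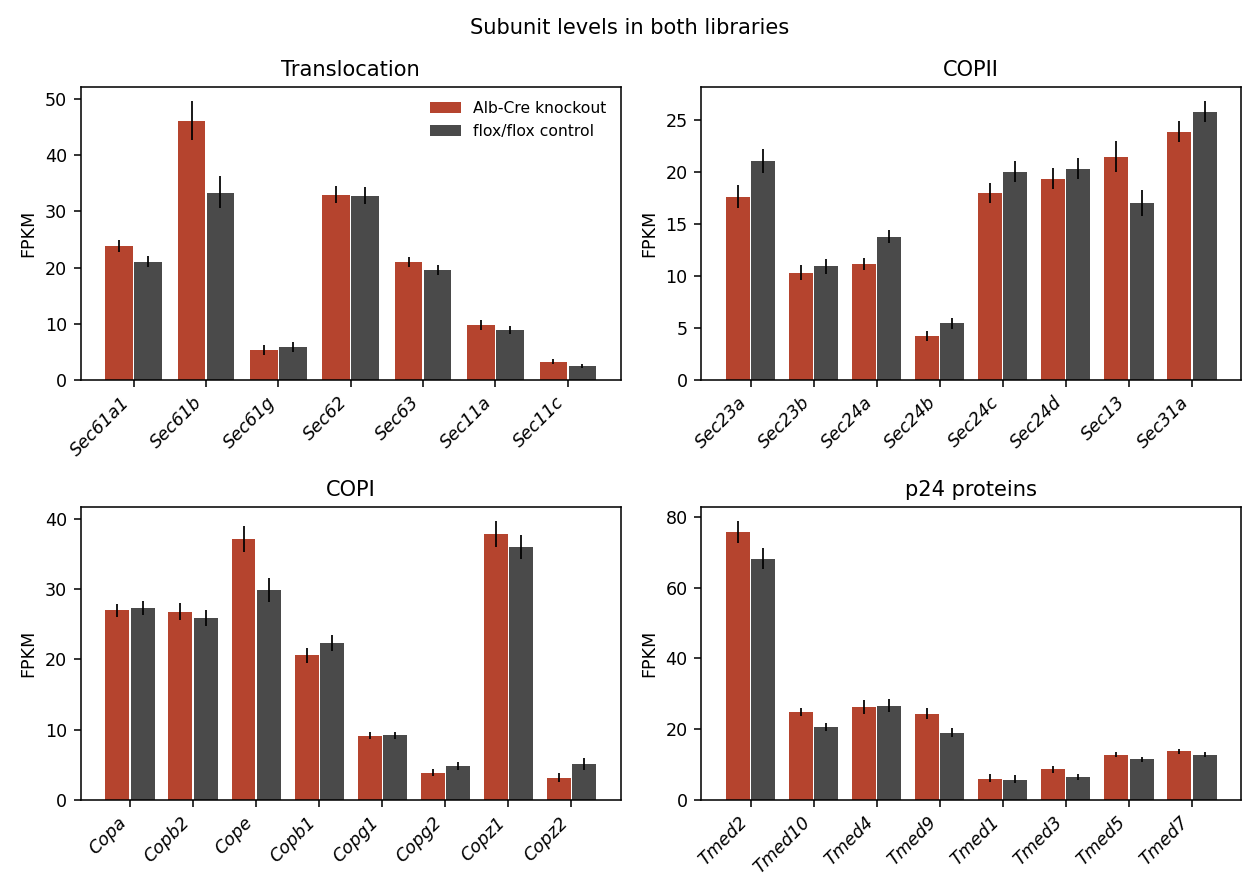
FPKM (vertical axes, from 0) of translocation, COPII, COPI and p24 genes in the knockout (red, left bar) and the control (grey, right bar), with 95% Poisson intervals of the reads scaled to FPKM. Sec61b, Sec13, Cope and Tmed9 stand higher in the knockout, Sec23a and Sec24a lower, and most COPI bars are level.

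Cargo receptors of the p24 family leaned towards the knockout. Of 10 family members, 8 were evaluated, 7 had a log2 ratio above 0, and for 6 the interval lay above 1, beside 46.0% and 20.5% of all evaluated genes. When length-corrected 6 were above 0 and Tmed1 turned to -0.05. Their uncorrected median was 0.16, length-corrected 0.28, and reads summed to 8882 in the knockout and 7999 in the control, 1.14-fold (1.11 to 1.18). The gamma subfamily gene Tmed3 was highest, with 299 reads in the knockout and 228 in the control, 1.35-fold (1.13 to 1.61). The alpha subfamily gene Tmed9 had 1018 reads in the knockout and 811 in the control, 1.29-fold (1.18 to 1.42). Tmed10, the single delta member, had 1756 reads in the knockout and 1489 in the control, 1.21-fold (1.13 to 1.30). Tmed2, the single beta member and the most abundant gene of the group, had 2328 reads (75.7 FPKM) in the knockout and 2143 reads (68.2 FPKM) in the control, 1.12-fold (1.05 to 1.19), a log2 ratio of 0.16, or 0.07 length-corrected. Tmed5 and Tmed7 were at 0.17 and 0.12 (0.30 and 0.26 length-corrected), and Tmed1 and Tmed4 at 0.07 and -0.01 with intervals that included 1. Tmed6 and Tmed11 had 0 reads in both libraries, and a count of 0 allows up to 3 reads in each.

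The other cargo and fusion genes were mostly below 0. Tmed8, a related protein outside the classical subfamilies, was lowest with 89 reads in the knockout and 129 in the control, a ratio of 0.710 (0.535 to 0.937). Sec22b, a SNARE of fusion between ER and Golgi membranes, was at 718 reads in the knockout and 757 in the control (0.880 to 1.08). Its relative Sec22c had 179 reads in the knockout and 251 in the control, a ratio of 0.734 (0.602 to 0.892), and Sec22a was at 0.11. The ER-Golgi Rabs were abundant and close to equal. Rab1b had 1685 reads (60.9 FPKM) in the knockout and 1496 reads (53.0 FPKM) in the control, 1.16-fold (1.08 to 1.24), and Rab2a, of retrograde Golgi transport, was 1.13-fold (1.05 to 1.22), a log2 ratio of 0.18, or 0.11 length-corrected. Rab1a was on the other side, with 1789 reads in the knockout and 1970 in the control, a ratio of 0.934 (0.876 to 0.996). Rab1a and Rab1b are close copies, and no source used here says how reads matching several places were counted, so their split is uncertain. Their summed level was 99.6 FPKM in the knockout and 94.7 FPKM in the control.

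COPI genes were near equality. The median log2 ratio of all 8 was 0.00, and reads summed to 11320 in the knockout and 11374 in the control, 1.02-fold (0.997 to 1.05). Copa, the alpha subunit of the outer layer, had 3098 reads in the knockout and 3201 in the control (0.947 to 1.05). Copb2, the beta-prime subunit, was at 0.06, Copb1 (beta) at -0.10 and Copg1 (gamma) at a ratio of 0.999. Length-corrected, Copa and Copg1 were each at 0.13 and 5 of the 8 genes lay above 0. Arcn1, the delta subunit, lies outside the naming rule and had 2599 reads in the knockout and 2707 in the control (0.935 to 1.04). Cope, the epsilon subunit, stood above the rest with 1516 reads in the knockout and 1245 in the control, a log2 ratio of 0.32 (fold interval 1.16 to 1.35). The minor paralogues were below 0. Copz2 had 84 reads in the knockout and 139 in the control, a ratio of 0.622 (0.468 to 0.821), so zeta-2 was 7.62% of the summed zeta level in the knockout and 12.3% in the control. Copg2 had 241 reads in the knockout and 303 in the control, a ratio of 0.818 (0.688 to 0.972). The major zeta gene Copz1, the most abundant COPI gene at 37.9 FPKM in the knockout and 36.0 FPKM in the control, was at 0.08.

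Late exocytic genes were mostly below 0. Of 16 members, 9 were evaluated. With or without the length correction, 7 of these (77.8%) had a log2 ratio below 0. The shares of all evaluated genes were 49.8% with it and 54.0% without. At the smaller threshold, 1 of the 9 (11.1%) was higher and 1 (11.1%) lower, beside 14.1% and 17.2% of all evaluated genes. The median of the 9 exocytic genes was -0.23, or -0.14 length-corrected. Their reads summed to 3253 in the knockout and 3795 in the control, a ratio of 0.882 (0.841 to 0.924). Rab10, which directs vesicles from the Golgi and endosomes to the plasma membrane and was the most abundant of the group, had 927 reads (21.7 FPKM) in the knockout and 1158 reads (26.5 FPKM) in the control, a ratio of 0.823 (0.754 to 0.898). Both subunits of the Rab3 GTPase-activating complex were lower. Rab3gap1, its catalytic subunit, had 709 reads in the knockout and 958 in the control, a ratio of 0.761 (0.690 to 0.840), and Rab3gap2 261 and 322 reads in the same order (0.705 to 0.985). Their log2 ratios of -0.39 and -0.26 were -0.22 and -0.13 when length-corrected. Rab3ip, an exchange factor for Rab8, had 365 reads in the knockout and 439 in the control, a ratio of 0.855 (0.742 to 0.985). Rab8a itself was on the other side, with 758 reads in the knockout and 675 in the control, 1.16-fold (1.04 to 1.28). Rab13, of epithelial junctions, was highest in the group, with 44 reads in the knockout and 29 in the control, and its interval included 1 (0.955 to 2.59). Rab3a, Rab3d and Rab27a, of regulated exocytosis, were at -0.30, -0.02 and -0.17, all with intervals that included 1.

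Set against each other, the median log2 ratio was -0.01 over the 43 evaluated early members and -0.23 over the 9 late ones, a difference of 0.22. By summed reads the early group had 47168 in the knockout and 47750 in the control, 1.02-fold (1.003 to 1.03). This difference was not uniform along the route, because the early group joined translocation and p24 genes above 0 to COPII genes below it. It was 0.31 without the COPII group, a choice made after the data were seen. It was 0.02 when the Golgi, recycling and endosomal members were counted as late too. At the smaller threshold, 6 early members (14.0%) were higher and 7 (16.3%) lower, while 1 late member was higher and 1 lower. The medians are descriptions of few genes in 1 library per genotype.

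Log2 ratios depended on gene length. This is the length deposited with each gene and used for its FPKM, which is not its span on the chromosome. Sec24b, for example, had a length of 6.02 kb and lies on chromosome 3 at 129982759 to 130061553. Across the 83 evaluated members, Spearman's rho between length and log2 ratio was -0.33, and it was -0.28 across all 9278 evaluated genes, with genes not independent of each other. COPII genes were long by this measure, with a median of 6.30 kb, beside 3.14 kb for the p24 genes and 4.31 kb for all evaluated genes. After subtracting the running median over genes of similar length, the COPII median was -0.073 and the COPI median 0.11. The translocation, p24 and exocytic medians were then 0.21, 0.28 and -0.14, and the early minus late difference 0.18. What made ratios vary with length was not tested.

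**Figure D4:**
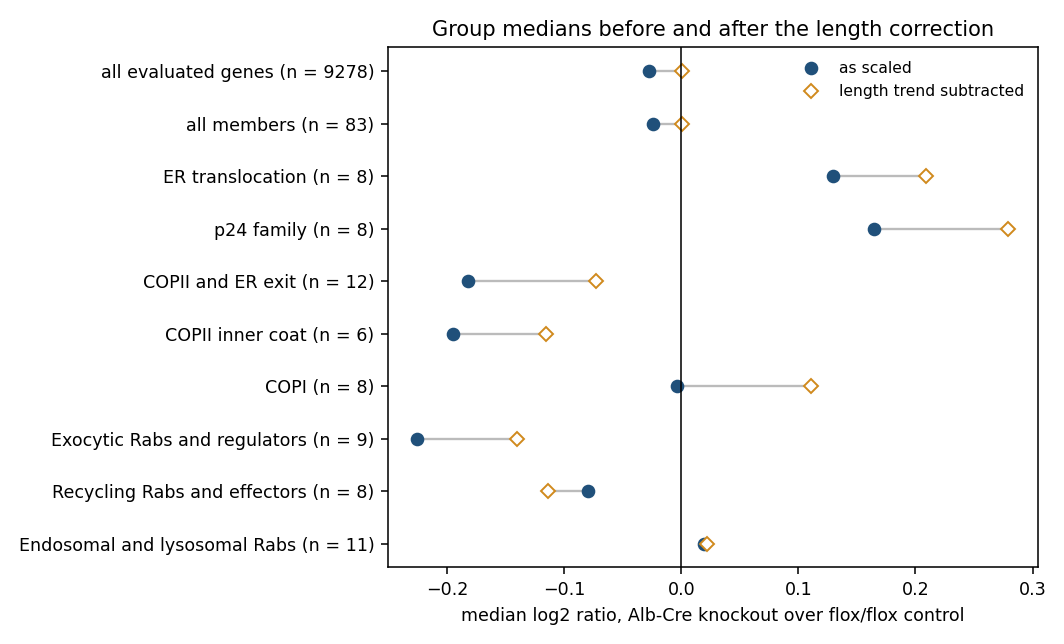
Median log2 ratio of knockout over control (horizontal axis) for all evaluated genes, all evaluated members and 8 groups, as scaled (filled) and after subtracting the length trend (open). Translocation and p24 medians stay above 0 and exocytic and recycling medians below it, while the COPII median comes nearer to 0 and the COPI median leaves it.

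Of the 5 evaluated Golgi Rabs, Rab34 and Rab43 were past the smaller threshold. Rab6a, the main Golgi Rab, had 777 reads in the knockout and 748 in the control (0.965 to 1.18). Rab29 and Rab33b were at 0.04 (-0.08 length-corrected) and 0.07, and Rab43 was the lowest at 77 reads in the knockout and 101 in the control (0.575 to 1.07). Of 12 members of this group, 7 were below the minimum. Among these, Rab6b, a paralogue of Rab6a known for its expression in brain, had 18 reads in the knockout and 42 in the control, a ratio of 0.441 (0.239 to 0.783). Rab36 had 56 reads in the knockout and 38 in the control (0.986 to 2.35).

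Of 8 evaluated recycling genes, 5 (62.5%) had a log2 ratio below 0 and 3 (37.5%) an interval below 1, Rab11fip2 among them, beside 54.0% and 26.1% of all evaluated genes. Rab11a and Rab11b, the Rabs of the recycling endosome, had 253 and 633 reads in the knockout and 285 and 651 in the control, and both intervals included 1. Rab14, which acts between Golgi and endosomes, had 1760 reads in the knockout and 2182 in the control, a ratio of 0.830 (0.779 to 0.884), a log2 ratio of -0.27, or -0.09 length-corrected. Rab11fip3, an effector of Rab11 like Rab11fip2, had 185 reads in the knockout and 239 in the control, a ratio of 0.796 (0.654 to 0.969), a log2 ratio of -0.33, or -0.20 length-corrected. Rab17, an epithelial Rab of apical recycling, was highest at 141 reads in the knockout and 128 in the control (0.886 to 1.45). Rab4a, of rapid recycling, and Rab35 were at -0.03 and 0.09. The median of the group was -0.08.

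Endosomal and lysosomal Rabs showed no common direction, with 6 of 11 above 0, beside 46.0% of all evaluated genes, and a median of 0.02. Rab7, the Rab of late endosomes and the most abundant of the group, had 2046 reads (64.4 FPKM) in the knockout and 1931 reads (59.5 FPKM) in the control, 1.09-fold (1.02 to 1.16), a log2 ratio of 0.12, or 0.02 length-corrected. Rab5c, the leading early endosome paralogue, was at 50.7 FPKM in the knockout and 47.7 FPKM in the control, while Rab5b had a ratio of 0.884 (0.813 to 0.961). Rab32, which serves lysosome-related organelles, was lowest with 217 reads in the knockout and 327 in the control, a ratio of 0.683 (0.572 to 0.813). Rab21, of integrin uptake, had 415 reads in the knockout and 543 in the control, a ratio of 0.786 (0.690 to 0.895). Rab31, of Golgi-to-endosome transport, was highest with 69 reads in the knockout and 48 in the control, 1.48-fold (1.01 to 2.18). The 4 evaluated members of the group of other Rabs lay between -0.13 for Rab18, a Rab of ER and lipid droplets, and 0.09 for Rab5if. Rab5if is in this group by its name and is not itself a Rab GTPase.

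The name rule also took 6 genes with no transport step, of which 3 were evaluated. Sec14l2 and Sec14l4 encode lipid-binding proteins named after a yeast transfer protein, and Sec14l2 was the most abundant of all 117 members in the knockout. Sec14l2 had 6373 reads (149 FPKM) in the knockout and 5230 reads (120 FPKM) in the control, a log2 ratio of 0.33 (fold interval 1.21 to 1.30). Sec14l4 had 3344 reads (78.8 FPKM) in the knockout and 5253 reads (121 FPKM) in the control, a ratio of 0.655 (0.627 to 0.684). Sec14l1, a further relative, had 226 reads in the knockout and 296 in the control, a ratio of 0.785 (0.658 to 0.937), a log2 ratio of -0.35, or -0.22 length-corrected. Sec14l2 and Sec14l4 were therefore level in the control and apart in the knockout, where Sec14l4 was 34.5% of their summed FPKM, against 50.2% in the control. Both lie on chromosome 11, and the split of reads between these related genes is uncertain.

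Among the 34 members below the minimum, the largest difference with 10 or more reads belonged to Rab27b, a Rab of granule and exosome release. It had 39 reads in the knockout and 8 in the control, 5.01-fold (2.31 to 12.4), at a mean of 0.180 FPKM over both libraries. Rab3il1, an exchange factor for Rab3a, had 75 reads in the knockout and 42 in the control, 1.84-fold (1.24 to 2.75), and Rab8b 31 and 50 reads in the same order (0.394 to 1.02). Of the 16 such members with 10 or more reads, 8 were higher in the knockout and 8 lower. Rab25, an epithelial recycling Rab, had 6 reads in each library, and Rab26 and Rab3c had 0 reads in both. The cholangiocyte and most fibroblast markers described above were higher in the knockout beside Rab27b, while secretory epithelium markers were mixed, with Pigr and Cela1 lower. The part of these markers in the Rab27b value was not tested.

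**Figure D5:**
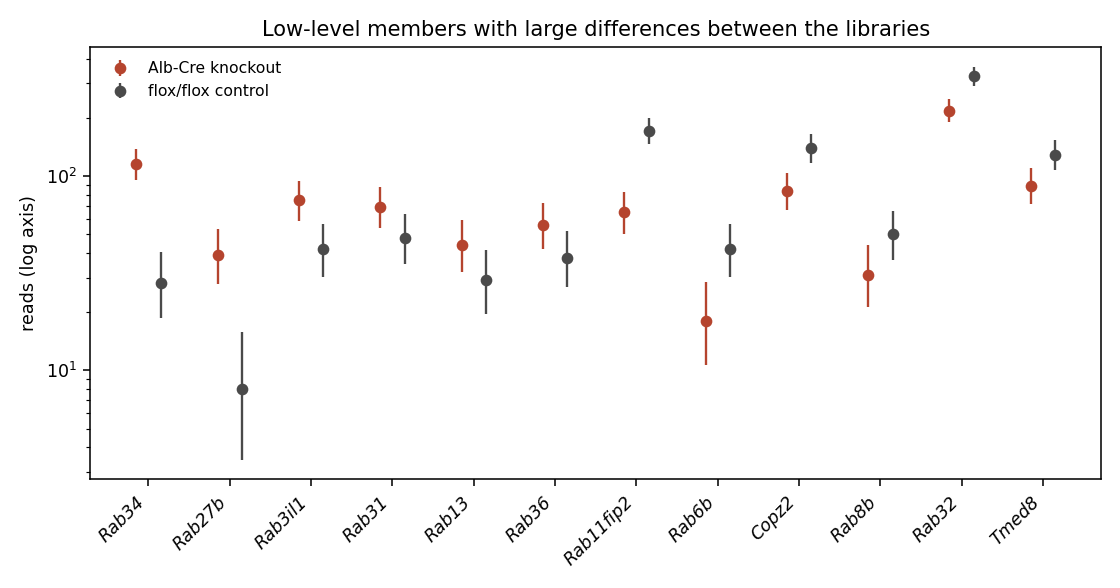
Reads (vertical, log axis) of 12 low-level members in the knockout (red, left) and the control (grey, right) with 95% Poisson intervals, chosen after their values were seen. Rab34, Rab27b and Rab3il1 are higher in the knockout and Rab11fip2, Rab6b, Copz2 and Rab32 lower, with intervals that do not overlap between the libraries. Those of Rab31, Rab13, Rab36, Rab8b and Tmed8 overlap.

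Genes that act beside these members were followed in 6 lists. No evaluated gene of these lists was at least 2-fold higher or lower. Of 28 evaluated genes of ER targeting, glycosylation and signal peptide cleavage, 25 had a log2 ratio above 0, beside 46.0% of all evaluated genes. The median of this list was 0.21, or 0.19 after the length correction. At the smaller threshold, 5 were higher and 1 lower. Krtcap2, a subunit of the oligosaccharyltransferase complex, was highest with 562 reads in the knockout and 400 in the control, 1.45-fold (1.27 to 1.65), and Tram2, a translocation-associated protein, lowest with 188 and 302 reads in the same order (0.531 to 0.771). Of 32 genes of ER exit, cargo receptors and the TRAPP tethering complex, 1 was higher and 2 lower at the smaller threshold, with a median of 0.02, from -0.46 for Trappc11 to 0.68 for Trappc6a. COPI control and retrieval genes had a median of 0.00 over 19 genes, with 0 higher and 1 lower. Zw10, a tether subunit, was lowest at -0.52 and Arfgap3, which acts on the coat's GTPase, highest at 0.27.

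Later steps had medians close to 0 or below it. Golgi tethers and SNAREs had a median of 0.02 over 27 genes, with 4 higher and 3 lower, from -0.42 for the SNARE gene Stx16 to 0.44 for Stx5a. Genes of Golgi exit, the exocyst and plasma membrane fusion had a median of 0.00 over 29 genes, with 2 higher and 1 lower. Within the exocyst, Exoc8 had 108 reads in the knockout and 197 in the control, a ratio of 0.564 (0.442 to 0.717), and Exoc4 402 and 291 reads in the same order, 1.42-fold (1.22 to 1.66). Genes of the Rab cycle had a median of -0.11 over 37 genes, or -0.06 after the length correction, with 2 higher and 10 lower. Madd, an exchange factor for Rab3 and Rab27, was lowest with 207 reads in the knockout and 323 in the control, a ratio of 0.659 (0.551 to 0.787), and Rabep2, a Rab5 effector, highest at 1.35-fold (1.10 to 1.66). These are descriptions beside the shares given above for all evaluated genes (14.1% and 17.2% at the smaller threshold).

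A promoter window from RefSeq (GRCm38.p6, 250 bases before to 50 after the start) was matched by symbol for 98 of the 117 members. Both strands were searched for the ER stress element (CCAAT and CCACG, 9 bases apart), for the unfolded protein response element TGACGTGG, bound by the stress factor XBP1, and for the E box CACGTG. The first was in 0 of 98 members and 0.137% of all 27025 genes in the table. The E box was in 13 members (13.3%) and 8.09% of all genes. TGACGTGG was in 5 members (5.10%) and 0.714% of all genes, and all 5 were coat or exit site genes, 12.5% of the 40 early members with a window. No member held both TGACGTGG and CACGTG. The 5 sites are printed with 11 bases on each side, on the strand of the gene, so that TGACGTGG or its reverse complement stands in capitals.
Copb1: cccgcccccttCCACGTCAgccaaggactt
Copb2: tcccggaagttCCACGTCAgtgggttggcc
Sec16b: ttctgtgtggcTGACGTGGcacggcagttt
Sec23a: ctcctccccttTGACGTGGcagaggcggca
Sec24d: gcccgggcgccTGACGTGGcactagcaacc

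These sites lie at chr7:114254690-114254719 (minus strand), chr9:98563713-98563742 (plus), chr1:157506741-157506770 (plus), chr12:59011993-59012022 (minus) and chr3:123267459-123267488 (plus), in the order printed. The log2 ratios of the same genes were -0.10, 0.06, -0.33, -0.24 and -0.06. Of the 5 genes, only Copb2 was above 0, and its interval included 1 (0.980 to 1.11). By the smaller threshold Sec16b was lower in the knockout and none was higher. The interval of Sec23a also lay below 1 (0.777 to 0.918). Length-corrected, Copb1 was at -0.01 and Sec24d at 0.01. Whether these sites bear on the ratios was not tested. A match is a description of letters in a window, not evidence of a factor's binding.

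Overlap with neighbouring genes could bear on some of these values. Of the evaluated members, 16 overlapped another gene in the table, and for 8 that neighbour had at least 20 reads in both libraries together. Tmed1 overlapped Dnm2 over 207 bases, and Dnm2 had 908 reads in the knockout and 793 in the control, beside 110 and 108 for Tmed1. Sec61a2 overlapped Nudt5 over 909 bases, and Nudt5 had 126 reads in the knockout and 102 in the control. Rab3gap2 overlapped Iars2, on the opposite strand, over 2034 bases. Iars2 had 829 reads in the knockout and 912 in the control, beside 261 and 322 for Rab3gap2. The others of these 8 were Copa, Copg2, Tmed5, Rab3a and Rab6a. No source used here says whether counting used strand, so reads in such stretches cannot be assigned. Rab34, Rab11fip2 and Rab27b overlapped no other gene in the table.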

How the data were processed

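RNA from mouse liver was sequenced in 2 libraries, 1 per genotype. For each gene and library, the authors deposited the read count, unnormalized, and its FPKM, which scales it for gene length and for all reads counted in that library. Bowtie2 2.4.2 and the mm10 genome are named in the submitters' processing notes, and no source used here gives the counting program, annotation or strand setting. FPKM was recomputed from counts, lengths and totals, and all 21936 genes matched within a relative tolerance of 1e-06. All 117 members had the same coordinates in GENCODE M21.

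Counts were scaled with TMM factors (0.996 for the knockout, 1.004 for the control) from edgeR 4.0.16 in R 4.3.3. Python 3.11.15 did the rest (scipy 1.17.1, pandas 2.3.3, numpy 2.4.6; figures with matplotlib 3.10.9). Log2 ratios had 0.5 added to each scaled count. Folds had nothing added and 95% Clopper-Pearson intervals. These cover counting error only, because each genotype has 1 library, and they make no allowance for PCR copies. The code was tested on simulated counts. A size rule (2-fold, or a log2 ratio of 0.32 in either direction) took the place of a test. Alternatives covered scaling (DESeq2 1.42.0), pseudocount, filter, threshold, gene length, GC content and the meaning of late. Members, groups and lists were chosen with earlier results of these data known. The minimum on expression used the mean of the libraries, which treats both alike. A gene could still pass with only 1 library above 1 FPKM, as Rab34 and Rab11fip2 did. Named genes were the highest, lowest and most abundant of each group, the 12 largest differences, list extremes and coat subunits; p24 genes, other Rabs, Sec11, Sec22 and genes below the minimum outside this rule were named after their values were seen.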

Additional observations from a re-analysis of the deposited data

How the results depend on the processing

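With 1 library per genotype, no replicate could be left out. No paired analysis was possible because each genotype has 1 library. The early minus late difference ran from 0.02 (all later members as late) to 0.31 over its alternatives and stayed above 0 in each, against 0.22. Under a minimum of 10 reads alone, the 2-fold rule took 2 members in each direction, beside 6.22% (higher) and 2.58% (lower) of all genes so filtered, and the ER-Golgi Rab median was 0.041. At a mean of 5 FPKM, 0 members passed 2-fold, and 6 (higher) and 5 (lower) of 58 passed the smaller threshold, beside 12.4% and 13.7% of all genes. The median of the genes with no transport step was then -0.14. At a threshold of 1.5-fold, 2 were higher and 3 lower, beside 5.31% and 4.84%. With the length trend subtracted, 9 members were lower by the smaller threshold, beside 14.2% of all genes, the COPII median was -0.073 and the COPI median 0.11. With GC content subtracted too, chosen after the data were seen, these were 8 (beside 14.4% of all genes), -0.076 and 0.12. By summed reads, the genes with no transport step were at -0.076. Of single genes, only group extremes, the most abundant of each group and the 12 largest differences were put through the alternatives. Among these, Sec31a, Sec61b, Rab7 and Rab3gap1 moved past their counting interval with the length correction, with or without GC content. Tmed2 did so with length alone, and Rab18 with both, to 0.02. Members outside this choice, Sec16a, Sec24a, Sec63, Copa, Tmed7 and Rab14 among them, also moved past theirs with the length correction. The causes were not tested. Few reads limit Rab34, Rab27b, Rab6b and Rab13, and differences between animals cannot be seen.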
